A study of Mus musculus with 4 samples.

Results

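The 10 genes described here build or serve the skeletal muscle sarcomere, and were selected by name to cover the Z disc (Actn2, Ldb3, Myoz2), the desmin filament (Des), titin (Ttn), calcium handling (Ryr1, Casq2, Sln) and the energy and oxygen store (Ckm, Mb). They are 10 of the 23162 features that had a count, and all 10 were among the 13718 that passed edgeR's filter on low counts. Each was found by its Ensembl identifier, with no threshold on its level or on its difference between the limbs. The list was drawn up, however, with earlier limb-type results of these same counts known, so the number of its genes that pass a test describes the list and supports nothing by itself.

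The counts come from DGE-SAGE, digital gene expression by serial analysis, in which the enzyme NlaIII cuts cDNA at CATG and the 17 bases beside a cut site are sequenced as a tag of that transcript. Total RNA was taken from 2 groups, hindlimbs and forelimbs dissected from E14.5 embryos of the CD1 mouse strain, with 2 biological replicates of each and no treatment or mutation in either group. The labels state neither how many embryos a sample held nor whether equal replicate numbers came from the same embryos, so p-values measure the spread between these samples. The comparison addressed which genes differ between the limb types as the limbs grow.

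Total counts were 5325279 and 5015295 in hindlimb replicates 1 and 2, and 4695786 and 1829647 in forelimb replicates 1 and 2. Levels are given in CPM, counts scaled to the library's total of tags with a gene and adjusted by TMM (a normalization on the bulk of genes), and 1 count was worth 0.222 and 0.252 CPM in the hindlimb libraries and 0.255 and 0.618 CPM in the forelimb libraries. A count in forelimb replicate 2 thus weighed most. A value here is a number of tags, which does not grow with transcript length, so levels of different genes are compared on the same scale, though a gene gives a tag only where a CATG lies close enough to its poly(A) end. The limb labels were checked on their identity genes, with Pitx1 and Tbx4 called higher and Tbx5 called lower in hindlimb. The tissue also carried the markers of skeletal muscle, with 16 of 17 listed genes other than the 10 detected and Tnnc1, the troponin C of slow and cardiac muscle, at 0. A 0 means that the deposited table gave the gene no counted tag, and 14.81% to 18.69% of each library's counts had no gene. Of 9 heart muscle markers, 6 had a count, among them Myh6, Myl4 and Ankrd1. The rest of that list, Nppa, Nkx2-5 and Tbx20, were at 0 in all 4 libraries.

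The sarcomere is the contractile unit of striated muscle. At each of its ends a Z disc holds the thin actin filaments in place with alpha-actinin and anchors titin, the elastic protein that runs on to the M band, while desmin filaments tie neighbouring Z discs together. A nerve signal opens the ryanodine receptor of the sarcoplasmic reticulum, the calcium that leaves this store starts contraction, and a calcium pump takes it back. Creatine kinase restores ATP from phosphocreatine, and myoglobin holds oxygen. In the embryonic limb most of these genes are switched on as myoblasts fuse into the first muscle fibres.

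The tags that carry the limb-type differences of Actn2, Ldb3, Ttn and Sln, and the pair of Des tags that went opposite ways, are shown first, because each value below is a count of such a tag or a sum over them. Each is written from the deposited table behind the NlaIII site, with the site in capitals and the tag in lower case. Letters A to D rank the tags of a gene by count, and the tags listed each hold at least 10% of the counts of their gene, except Ttn tag D.
Actn2 tag A: CATGactagagagaccgcaga
Actn2 tag B: CATGaggatttcagagcctgc
Actn2 tag C: CATGggctatgacttgggtga
Ldb3 tag A: CATGgttttcttttcctttat
Ldb3 tag B: CATGcttgttttgaaataaag
Ldb3 tag C: CATGcatagtgttaagattaa
Des tag A: CATGgcccctctctttcccat
Des tag B: CATGaagtgctgtaagccagg
Ttn tag A: CATGgatagcttgggaaatgt
Ttn tag B: CATGacaaatataaccagagc
Ttn tag C: CATGtgcactgacacctattg
Ttn tag D: CATGccagtatatgttcaatt
Sln tag A: CATGttttctaaagatgctgt
Sln tag B: CATGctatactccagggagtg
Sln tag C: CATGagatgctgcttctggct
The share of G and C in a tag runs from 23.5% in the 3 Ldb3 tags to 58.8% in Des tag A. Each of these tags matched a single gene in the GENCODE M21 transcripts. Positions below are those of GENCODE M21 on GRCm38 and cover the CATG and the tag, whereas the submitters' processing notes name mm9.

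Ldb3, Ttn, Sln and Actn2 were lower in hindlimb than in forelimb, by 1.19 to 2.09 on the log2 scale, and none of the 10 genes passed the test in the other direction. The 4 genes called lower were 4 of 10 (edgeR quasi-likelihood test, Benjamini-Hochberg adjusted p under 0.05 over all 13718 features), where 7.08% of all features were called lower and 16.7% were called in either direction. Myoz2, Casq2, Ryr1 and Ckm had lower values in hindlimb without passing, and Des and Mb had higher values without passing. At an unadjusted p under 0.05 the number was again 4 lower and 0 higher, where 15.6% of all features were lower. DESeq2 gave 4 and 0 as well, where it called 7.49% of all features lower. The summed level of the 10 genes was 458 and 489 CPM in the hindlimb libraries, against 1031 and 917 CPM in the forelimb libraries. In whole limbs, fewer muscle cells and less of each RNA per muscle cell cannot be told apart.

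In 8 of the 10 genes both hindlimb libraries lay below both forelimb libraries, and in the other 2, Des and Mb, both lay above. Over all tested features, 31.4% had both hindlimb libraries below and 31.4% had both above. The median log2 fold change of the 10 genes, hindlimb over forelimb, was −0.90, beside −0.029 over all features. The contrast chose nothing by threshold, but since it was known when the genes were picked these counts are a description.

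**Figure D1:**
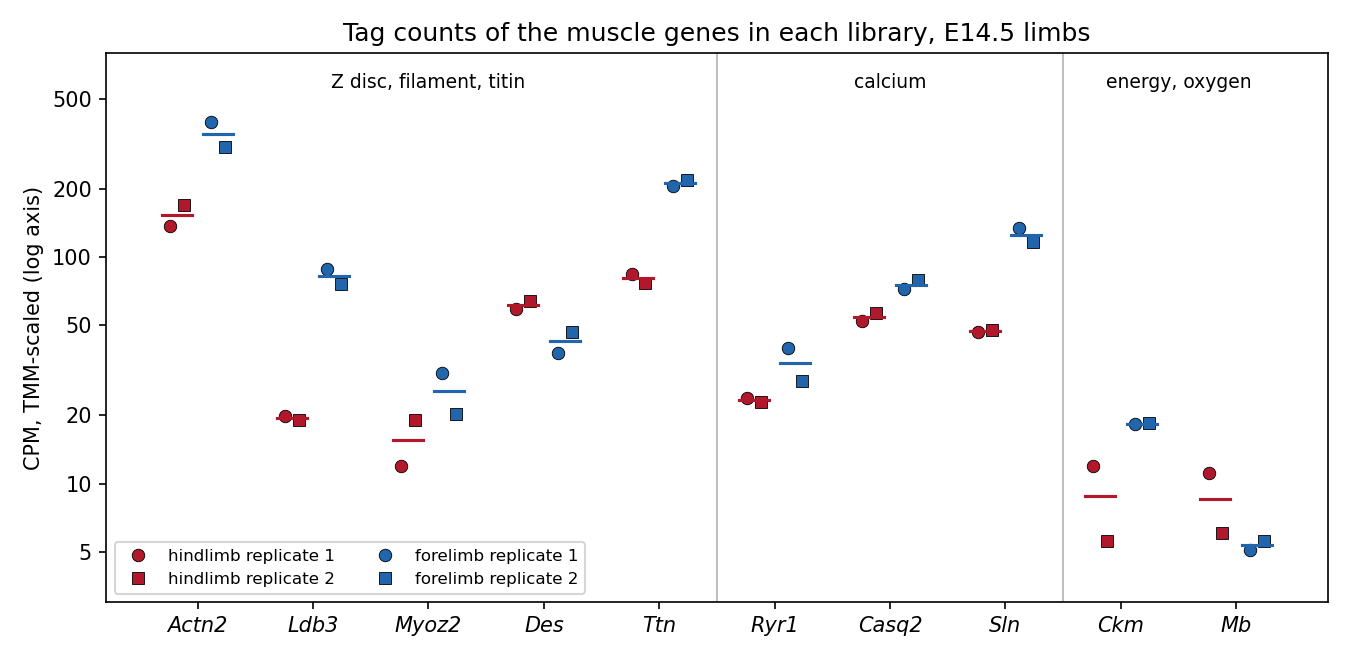
Level of each gene in each library, in TMM-scaled CPM on a log axis, with hindlimb replicates in red to the left and forelimb replicates in blue to the right. Bars are the means of 2 libraries. The limb types are well apart for Ldb3, Ttn, Sln and Actn2, while Des and Mb are the genes whose hindlimb libraries lie above the forelimb ones.

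Base composition of the tags moved with limb type across the whole table, and values with a correction for it are set beside the others. The correction, called here the tag-sequence offset, predicts each tag's deviation in a library from its bases. It learns from contrasts of tags within genes, so that the level of a gene as a whole cannot enter it. It left 1 of the 10 genes called, Ldb3, where 0.153% of all features were called. With it all 10 genes had values below 0, with a median of −0.69 beside −0.015 over all features. The spread narrowed too, to an SD over the 10 genes of 0.49 from 0.87, and over all features to 0.71 from 1.16. The offset was fitted on these same counts, so a narrower spread follows in part from the fit. At an unadjusted p under 0.05, 8 of the 10 were lower with the offset, where 5.05% of all features were.

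**Figure D2:**
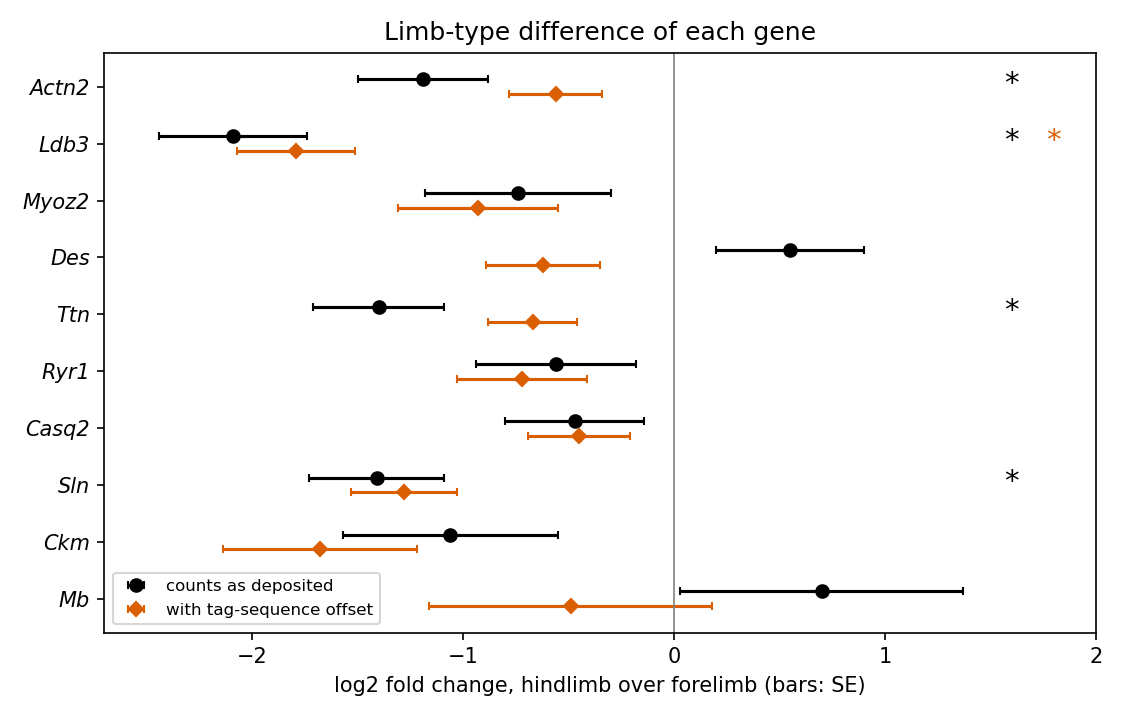
Log2 fold change of each gene, hindlimb over forelimb, from the counts as deposited (black circles) and with the tag-sequence offset (orange diamonds), each with its SE. Stars at the right mark an edgeR adjusted p under 0.05 in the fit of that colour. Only Ldb3 has both stars, at −2.09 and −1.79, and Des and Mb change side.

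Actn2 (ENSMUSG00000052374, chr13:12269426-12340760, minus strand) encodes alpha-actinin 2, the protein that crosslinks thin filaments in the Z disc. It was the most abundant of the 10 genes in both limb types. Its level was 137 and 170 CPM in the hindlimb libraries, against 396 and 306 CPM in the forelimb libraries. The higher hindlimb library was well below the lower forelimb library. On the log2 scale the difference was −1.19 with an SE of 0.31 (edgeR adjusted p = 0.0165), which is 0.437 times the forelimb level. Leaving out forelimb replicate 1 (−0.99, adjusted p = 0.185) or forelimb replicate 2 (−1.38, adjusted p = 0.0573) ended the call, as did the offset (−0.56, adjusted p = 0.408).

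The Actn2 counts came almost wholly from 3 neighbouring sites in the last part of the coding sequence. Tag A (chr13:12270833-12270853) lies at the last CATG of the transcript and held 50.4% of the counts. It had 59.5 and 79.4 CPM in hindlimb and 220 and 151 CPM in forelimb, a log2 fold change of −1.42 ± 0.41 (errors after ± are SE throughout). Tag B (chr13:12272723-12272743) gave −1.33, and tag C, which spans a splice junction (chr13:12270932-12272714), gave −0.57. All 3 had both hindlimb libraries below both forelimb libraries, yet none passed the adjustment over 37805 tags (edgeR adjusted p = 0.0689, 0.0788 and 0.409). The share of all tags without overlap was not counted, here or for the tags below. Over all features 31.4% had both hindlimb libraries below. With the offset their values lay close together, at −0.67, −0.46 and −0.41.

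Ldb3 (ENSMUSG00000021798, chr14:34526603-34588682, minus strand) encodes ZASP, also called Cypher, a protein with a PDZ domain that binds alpha-actinin at the Z disc. It had 19.8 and 19.2 CPM in the hindlimb libraries, from 89 and 76 counts. In the forelimb libraries it had 89.1 and 76.6 CPM, from 350 and 124 counts. The limb types were separated by far more than either pair of replicates spread. Hindlimb over forelimb, Ldb3 stood at −2.09 ± 0.35 on the log2 scale (SE; edgeR adjusted p = 0.00156), or 0.235 times the forelimb level, the largest difference among the 10 genes. Ldb3 was called lower in all 17 alternatives tried, between −2.36 and −1.19, and with the tag-sequence offset it stood at −1.79 ± 0.28 (edgeR adjusted p = 0.0173).

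Ldb3 ends its transcripts at different places, and its tags report on both kinds of end. Tag A (chr14:34526779-34526799) and tag C (chr14:34527078-34527098) lie in the 3′ UTR of the long forms, which code for up to 723 residues. Tag B (chr14:34561284-34561304) lies in the 3′ UTR of short forms that code for 327 or 288 residues. These short forms keep the PDZ end of the protein and lack the LIM domains of the long ones.

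Long-form tag A had 8.48 and 11.8 CPM in hindlimb, against 46.7 and 31.2 CPM in forelimb, at −1.95 ± 0.49 (edgeR adjusted p = 0.0492). Short-form tag B had 3.12 and 0.751 CPM in hindlimb, against 20.4 and 14.7 CPM in forelimb, at −3.15 ± 0.73 (edgeR adjusted p = 0.0416). Tag C, at −2.97 ± 1.03, did not pass (adjusted p = 0.104), with 17 and 0 counts in hindlimb against 56 and 27 in forelimb. In all 3 the limb types did not overlap, where 31.4% of all features had both hindlimb libraries below. The calls of tags A and B were lost under the replicate block (adjusted p = 0.115 and 0.0633) and without forelimb replicate 1 (0.185 and 0.0608), and that of tag B also without hindlimb replicate 2 (0.0595). Whether the ratio of the tags differed was tested too, and it did not pass (edgeR diffSpliceDGE, adjusted p = 0.762), where 10.4% of all genes with several tags did. It passed only without hindlimb replicate 1, where more genes passed over the whole table as well. All 3 tags hold 23.5% G and C, and with the offset they gave −1.49, −3.04 and −2.44, with none called (edgeR adjusted p = 0.335 to 0.631).

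Myoz2 (ENSMUSG00000028116, chr3:123006206-123035015, minus strand) encodes calsarcin-1, which links alpha-actinin to calcineurin and belongs to slow and cardiac muscle in the adult. Its levels were 12 and 19.2 CPM in hindlimb, against 30.8 and 20.4 CPM in forelimb. Hindlimb replicate 2 and forelimb replicate 2 lay close to each other, so the gap between limb types was smaller than the spread within them. The log2 fold change of −0.74 ± 0.44 did not pass (edgeR adjusted p = 0.254). Its tags disagreed in sign. The tag with 61.3% of the counts gave −0.43, the one with 20.4% gave −3.35 ± 1.15 (adjusted p = 0.0957), and the one at the last CATG gave 0.27. With the offset these were −1.02, −1.90 and −0.95, and none passed in either fit. The ratio of the Myoz2 tags did not pass with all libraries (edgeR diffSpliceDGE, adjusted p = 0.219). It passed only without hindlimb replicate 1, where more genes passed over the whole table as well.

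Des (ENSMUSG00000026208, chr1:75360329-75368579, plus strand) encodes desmin, the intermediate filament of muscle. It had 58.9 and 64.3 CPM in the hindlimb libraries, against 37.9 and 47.0 CPM in the forelimb libraries. Both hindlimb libraries were higher, but the log2 fold change of 0.55 ± 0.35 did not pass (edgeR adjusted p = 0.291). It was −0.62 with the tag-sequence offset.

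The 2 leading Des tags went opposite ways. Tag A (chr1:75367470-75367490) lies in the 3′ UTR and holds 62.7% of the counts, and tag B (chr1:75367036-75367056) lies in the coding sequence, 3 sites further from the poly(A) end, and holds 19.6%. Tag A had 39.9 and 50.3 CPM in hindlimb, against 17.8 and 11 CPM in forelimb, at 1.62 ± 0.48 (edgeR adjusted p = 0.0701). Tag B had 4.24 and 4.01 CPM in hindlimb, against 15 and 32.4 CPM in forelimb, at −2.49 ± 0.59 (edgeR adjusted p = 0.0449). In neither tag did the limb types overlap, with hindlimb higher in tag A and lower in tag B. Over all features 31.4% lay apart in each direction. The call of tag B was lost under the replicate block (adjusted p = 0.0954) and without forelimb replicate 2 (−1.90, 0.161).

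Over all genes with several tags, 10.4% passed the test of tag ratios. With all 4 libraries and no block, Des was the only gene of the 10 whose tags changed in ratio (edgeR diffSpliceDGE, adjusted p = 0.0173). That call was lost under the replicate block (adjusted p = 0.115), without hindlimb replicate 2 (0.173), without forelimb replicate 1 (0.180) and without forelimb replicate 2 (0.424). With the offset tag A gave −0.14, while tag B stayed at −2.08 (edgeR adjusted p = 0.582). The ratio of the tags was not tested with the offset. Counted from tag A alone, Des was called higher in hindlimb (1.56, adjusted p = 0.0330).

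Ttn (ENSMUSG00000051747, chr2:76703980-76982547, minus strand) encodes titin. It had 84.5 and 76.9 CPM in the hindlimb libraries, against 207 and 219 CPM in the forelimb libraries. Each pair of replicates was tight, and the limb types were far apart. Titin thus differed by −1.40 on the log2 scale, with an SE of 0.31 (edgeR adjusted p = 0.00675), or 0.380 times the forelimb level. Titin was no longer called when forelimb replicate 1 (−1.44, adjusted p = 0.0512) or forelimb replicate 2 (−1.36, adjusted p = 0.0648) was left out, nor with the offset (−0.67, adjusted p = 0.286).

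The 4 Ttn tags shown lie within the 3′ UTR, in the order D, A, B, C from the poly(A) end. Tag A (chr2:76704341-76704361), with 43.4% of the counts, had 47.1 and 37.8 CPM in hindlimb, against 86.5 and 65.5 CPM in forelimb, at −0.84 ± 0.42 (edgeR adjusted p = 0.219). Tag B (chr2:76704422-76704442), with 28.6%, had 13.2 and 10.0 CPM in hindlimb, against 71.5 and 93.6 CPM in forelimb, at −2.82 ± 0.44 (edgeR adjusted p = 0.0206). These neighbours, both without overlap of the limb types, differed widely in size. Over all features 31.4% had both hindlimb libraries below.

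Ttn tag C (chr2:76704543-76704563) gave −1.87 ± 0.58 (edgeR adjusted p = 0.0804). Tag D (chr2:76704047-76704067), at the last CATG with 9.51% of the counts, went the other way, at 0.62 ± 0.61 (adjusted p = 0.534). Its libraries overlapped, with 10.9 and 17.5 CPM in hindlimb and 12.4 and 5.51 CPM in forelimb. A tested tag with no M21 match, 5.89% of the counts, gave −2.65 (adjusted p = 0.0747), with 8 and 10 counts in hindlimb against 83 and 8 in forelimb. Counted at the last CATG alone, titin was at 0.39 (adjusted p = 0.655). With the offset, tags A to D lay between −0.87 and −0.52.

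Ryr1 (ENSMUSG00000030592, chr7:29003344-29125179, minus strand) encodes the calcium release channel of the skeletal muscle sarcoplasmic reticulum. Its levels were 23.8 and 22.9 CPM in hindlimb, against 39.7 and 28.4 CPM in forelimb. The limb types did not overlap, but the forelimb libraries spread widely. The log2 fold change of −0.56 ± 0.38 did not pass (edgeR adjusted p = 0.331). Its leading tag, 46.5% of the counts, gave −0.93 ± 0.51, and the tag at the last CATG, 39.5%, gave −0.41 ± 0.73 with 75 and 6 counts in the forelimb libraries. A further 9.50% of its counts lay in a tag that matched 3 genes and is uncertain.

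Casq2 (ENSMUSG00000027861, chr3:102086415-102146514, plus strand) encodes calsequestrin 2, the calcium buffer of the cardiac and slow muscle store, which embryonic skeletal muscle also makes. It had 52.2 and 57.0 CPM in hindlimb, against 72.1 and 79.1 CPM in forelimb. No library of one limb type reached the other, and the replicates were close. At −0.47 ± 0.33 the log2 fold change did not pass (edgeR adjusted p = 0.347), and the offset left it at −0.45. The tag at the last CATG, with 74.5% of the counts, gave −0.32 ± 0.41, and the next site upstream, with 10.4%, gave −2.16 ± 0.65 (adjusted p = 0.0737). Of the tags tested, the one farthest in the other direction gave 0.17 ± 1.73 from 21 counts.

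Sln (ENSMUSG00000042045, chr9:53850164-53854560, plus strand) encodes sarcolipin, a small membrane protein that inhibits the calcium pump. It had 46.9 and 47.6 CPM in the hindlimb libraries, against 135 and 117 CPM in the forelimb libraries. The hindlimb replicates were nearly equal and lay far below both forelimb ones. Sln differed by −1.41 on the log2 scale, with an SE of 0.32 (edgeR adjusted p = 0.00758), or 0.375 times the forelimb level. Sln did not pass when forelimb replicate 1 was left out (−1.30, adjusted p = 0.0876) or with the offset (−1.28, adjusted p = 0.0648), though its value moved little.

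All 3 Sln tags lie in the 3′ UTR, upstream of the last CATG. Tag A (chr9:53853712-53853732), with 65.8% of the counts, gave −1.37 ± 0.44 (edgeR adjusted p = 0.0852). Tag B (chr9:53853574-53853594) gave −1.04 ± 0.51 (adjusted p = 0.214). Tag C (chr9:53853631-53853651) had 4.46 and 3.51 CPM in hindlimb, against 20.9 and 23.3 CPM in forelimb, at −2.45 ± 0.54 (edgeR adjusted p = 0.0382). The call of tag C was lost under the replicate block (adjusted p = 0.0847), without forelimb replicate 1 (0.0502) and without hindlimb replicate 2 (0.0640). All 3 tags had non-overlapping limb types, with lower values in hindlimb, where 31.4% of all features had both hindlimb libraries below. With the offset the 3 tags gave −0.98, −2.01 and −1.71.

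Ckm (ENSMUSG00000030399, chr7:19404776-19422841, plus strand) encodes the muscle creatine kinase. Levels were 12 and 5.55 CPM in hindlimb, against 18.3 and 18.5 CPM in forelimb. Hindlimb replicate 2, with 22 counts, was the low sample, and the limb types did not overlap. The log2 fold change of −1.06 ± 0.51 did not pass (edgeR adjusted p = 0.158). Without hindlimb replicate 1 it was −1.74, and without hindlimb replicate 2 it was −0.6. The 2 leading tags gave −0.66 ± 0.67 and −1.15 ± 0.89.

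Mb (ENSMUSG00000018893, chr15:77015487-77050670, minus strand) encodes myoglobin and was the least abundant of the 10 genes by the mean of either limb type. It had 11.1 and 6.05 CPM in hindlimb, from 50 and 24 counts, against 5.09 and 5.56 CPM in forelimb, from 20 and 9 counts. Hindlimb replicate 1 was the high sample, and hindlimb replicate 2 was close to the forelimb libraries. At 0.70 ± 0.67 the log2 fold change did not pass (edgeR adjusted p = 0.510), and it was −0.49 with the offset. Its 2 leading tags gave 1.15 ± 1.17 and 0.05 ± 1.15. A coding tag with 11.7% of the counts, too low to be tested, had 5 and 7 counts in hindlimb and 0 in both forelimb libraries. A count this small does not separate the limb types.

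The order of levels in the counts as deposited changed between the limb types mainly through Ldb3, Sln and Des. It was not read with the tag-sequence offset, which moved the log2 fold change of Des from 0.55 to −0.62. In hindlimb the order by mean CPM was Actn2, Ttn, Des, Casq2, Sln, Ryr1, Ldb3, Myoz2, Ckm and Mb. Ldb3 overlapped Myoz2, Myoz2 overlapped Ckm and Ckm overlapped Mb. In forelimb it was Actn2, Ttn, Sln, Ldb3, Casq2, Des, Ryr1, Myoz2, Ckm and Mb, where Ldb3 overlapped Casq2, Des overlapped Ryr1 and Ryr1 overlapped Myoz2. Ldb3 thus stood in the seventh place in hindlimb and in the fourth in forelimb, while Des stood in the third place in hindlimb and in the sixth in forelimb.

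Tag by tag, 95 tags of the 10 genes had a count and 33 were tested. They held 96.3% of the genes' counts, and 51.7% of the counts lay in a 3′ UTR and 46.4% in coding sequence. Of the 33, 5 were called lower in hindlimb (Ldb3 tags A and B, Des tag B, Ttn tag B and Sln tag C), where 1.64% of all tested tags were, and 0 were called higher. Under the replicate block Ttn tag B alone was called (adjusted p = 0.0474). The number called changed when single libraries were left out, and so did the number called over all tags. At an unadjusted p under 0.05, 14 of the 33 passed, where 28.5% of all tested tags did. Values lay below 0 for 25 tags, and 4 genes had tested tags on both sides of 0.

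The tag values followed the tags' base composition. The 10 tags with less than 40% G and C had a median log2 fold change of −2.30, and 1 of them was above 0. The 16 tags with 40% to 55% had a median of −0.88, and 2 were above 0. The 7 tags with 55% or more had a median of 0.27, and 5 were above 0. The tested Ldb3 tags all held 23.5% G and C. The 4 tested Des tags held between 52.9% and 70.6%. Of these, tag B, at 52.9%, stood at −2.49, and those with 58.8% or more were above 0.

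Across the 33 tags, Pearson's r was 0.556 between log2 fold change and G and C share, and 0.804 between log2 fold change and the value expected from the tag's bases. The same values over all 37805 tested tags were 0.572 and 0.801. These are descriptions, since tags of a gene share its level and all tags share the 4 libraries. The expected values were also fitted on these same counts. Their r, and the loss of the G and C trend with the offset, thus follow in part from the fit. With the offset the 3 medians were −1.23, −0.70 and −0.95, 30 of the 33 tags were below 0, and 0 were called, against 10 over all tags. At an unadjusted p under 0.05, 10 of the 33 then passed, where 7.44% of all tested tags did.

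**Figure D3:**
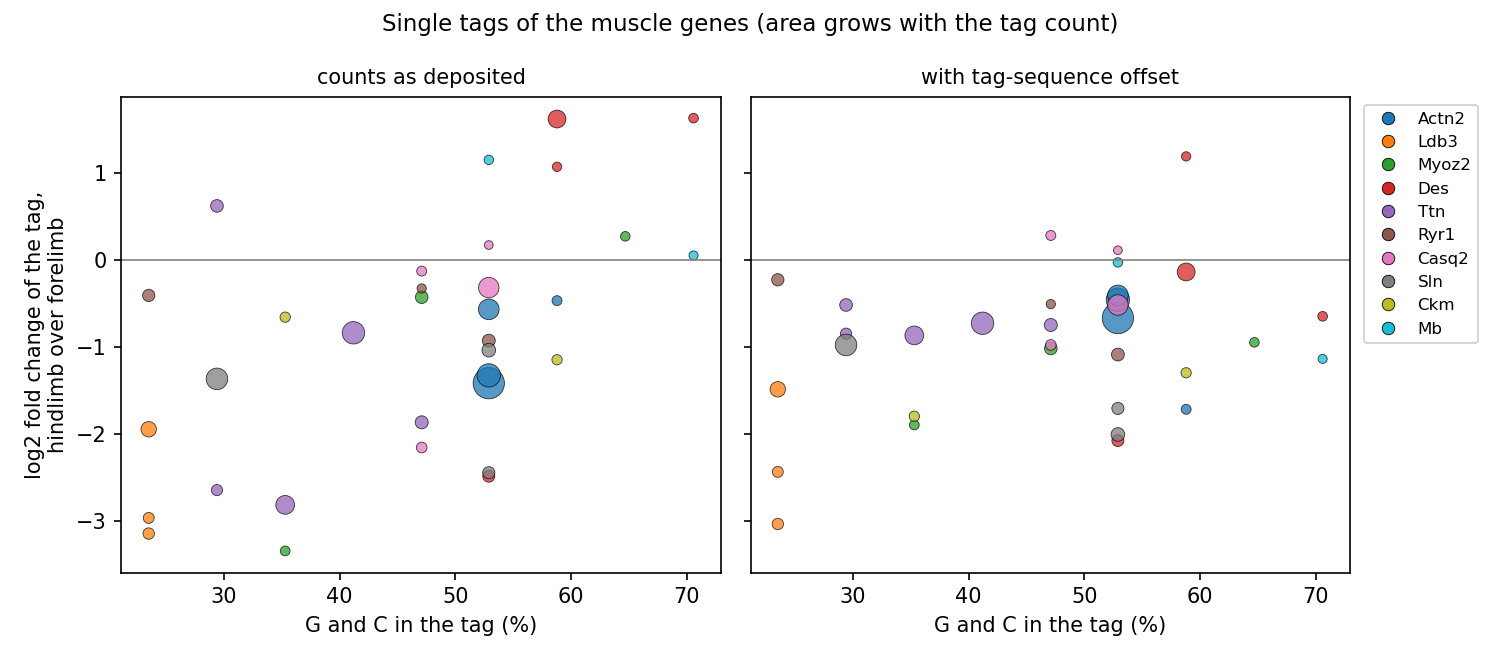
Log2 fold change of each of the 33 tested tags, hindlimb over forelimb, against the share of G and C in its 17 bases, from the counts as deposited (left) and with the tag-sequence offset (right). Each circle is a tag, coloured by gene, and its area grows with its count. On the left the values climb with G and C, from the Ldb3 tags at 23.5% to the Des tags at 58.8% and above, and on the right they do not. The offset was fitted on these same counts.

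Other genes of the same machinery were read from 4 lists. Of 73 listed genes 59 were tested, and 7 were called lower and 4 higher in hindlimb, leaving 48 not called (edgeR adjusted p under 0.05), a share near the 16.7% called over all features. DESeq2 called 8 lower and 4 higher, where it called 7.49% of all features lower. The number called changed when single libraries were left out, and so did the number called over all features. The median log2 fold change of the lists then lay between −0.31 and −0.11. With the tag-sequence offset 0 were called, where 0.153% of all features were. At an unadjusted p under 0.05, 11 were then lower and 1 higher, where 5.05% of all features were lower. The number below 0 was 49 with the offset, against 33 without it. The median log2 fold change of the 59 was −0.15, and −0.44 with the offset.

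Of 21 tested Z disc and intermediate filament genes, 4 were called lower and 0 higher, and 17 did not pass. At an unadjusted p under 0.05 these counts were 4 and 1, and by DESeq2 4 and 0. Over all features 7.08% were called lower, 15.6% at an unadjusted p under 0.05 and 7.49% by DESeq2. Smpx, a small protein of striated muscle, had 3.56 and 2.27 CPM in hindlimb, against 20.4 and 30.9 CPM in forelimb, at −3.10 ± 0.54 (edgeR adjusted p = 0.00187). Flnc, the filamin of muscle, had 29.6 and 17.6 CPM in hindlimb, against 65.2 and 110 CPM in forelimb, at −1.88 ± 0.38 (edgeR adjusted p = 0.00467). Fhl1, a LIM-domain protein of muscle, had 32.9 and 31.0 CPM in hindlimb, against 98.0 and 84.7 CPM in forelimb, at −1.52 ± 0.33 (edgeR adjusted p = 0.00682). In these 3 genes, as in Ldb3 and in Myot below, both hindlimb libraries lay below both forelimb libraries. Over all tested features 31.4% did. Being called lower in the same libraries, these genes were likely to show it.

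Myot, which encodes myotilin, another partner of alpha-actinin, had 8.0 and 2.77 CPM in hindlimb, against 17.1 and 31.5 CPM in forelimb, at −2.13 ± 0.55 (edgeR adjusted p = 0.0167). With the offset, Smpx was at −1.66, Myot at −0.88, Fhl1 at −0.49 and Flnc at −0.18, and none passed. Flnc lost its call without forelimb replicate 2 (adjusted p = 0.0669), Fhl1 without forelimb replicate 1 (0.0751), and Myot without forelimb replicate 2 (0.124) and without hindlimb replicate 2 (0.0850).

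Of 6 tested M band genes and titin partners, 1 was called in each direction, where 16.7% of all features were called in either direction. Myom1, the myomesin that crosslinks thick filaments at the M band, had 22.0 and 21.9 CPM in hindlimb, against 44.1 and 50.7 CPM in forelimb, at −1.10 ± 0.37 (edgeR adjusted p = 0.0483). That call held in only 6 of 17 alternatives and was lost whichever of the 4 libraries was left out (adjusted p = 0.0527 to 0.214). Obsl1, a relative of obscurin that is also made outside muscle, had 163 and 204 CPM in hindlimb, against 85.6 and 80.9 CPM in forelimb, at 1.14 ± 0.31 (edgeR adjusted p = 0.0209), and −0.19 with the offset. Its call was lost without hindlimb replicate 2 (0.0659), forelimb replicate 1 (0.153) or forelimb replicate 2 (0.184). The 2 genes moved in opposite directions, each without overlap of the limb types. Over all tested features 31.4% lay apart in each direction.

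Of 16 tested calcium genes other than Ryr1, Casq2 and Sln, 1 was called lower and 0 higher, a share near the 7.08% of all features called lower. At an unadjusted p under 0.05 the counts were 2 and 0, where 15.6% of all features were lower. By DESeq2 they were also 2 and 0, where it called 7.49% of all features lower. Atp2a2, the calcium pump of slow and cardiac muscle, which many other cells also use, had 99.4 and 49.2 CPM in hindlimb, against 176 and 181 CPM in forelimb, at −1.26 ± 0.35 (edgeR adjusted p = 0.0219). It did not pass when hindlimb replicate 2 (adjusted p = 0.167), forelimb replicate 1 (0.103) or forelimb replicate 2 (0.110) was left out, nor with the offset (−0.32, adjusted p = 0.692). Pln and Pvalb had no count in any library. Phospholamban, encoded by Pln, is the heart's relative of sarcolipin.

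Of 16 tested genes of the energy store and fuel supply, 1 was called lower and 3 higher, where 16.7% of all features were called in either direction. Gatm, which makes the precursor of creatine, had 25.1 and 20.7 CPM in hindlimb, against 70.5 and 42.6 CPM in forelimb, at −1.32 ± 0.38 (edgeR adjusted p = 0.0261). Slc6a8, the creatine transporter, had 42.0 and 52.9 CPM in hindlimb, against 12.5 and 22.2 CPM in forelimb, at 1.49 ± 0.40 (edgeR adjusted p = 0.0198). Pfkm, the muscle phosphofructokinase of glycolysis, had 75.4 and 98.3 CPM in hindlimb, against 34.1 and 34.6 CPM in forelimb, at 1.34 ± 0.34 (edgeR adjusted p = 0.0149). The creatine synthesis gene was thus the lower one and the transporter the higher one.

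With the offset Gatm was at −0.31, Slc6a8 at 0.47 and Pfkm at −0.32, with none called. All 3 calls were lost without hindlimb replicate 2 (adjusted p = 0.0782 for Gatm, 0.0569 for Slc6a8 and 0.0539 for Pfkm) and without forelimb replicate 1 (0.304, 0.245 and 0.128), and that of Pfkm also without forelimb replicate 2 (0.117). The third gene called higher, Phkg1, a subunit of phosphorylase kinase, is uncertain, because 100% of its counts came from tags that matched several genes. It was called at 1.38 ± 0.33 (edgeR adjusted p = 0.0102), with 0.07 with the offset. The call of Phkg1 was also lost without forelimb replicate 1.

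**Figure D4:**
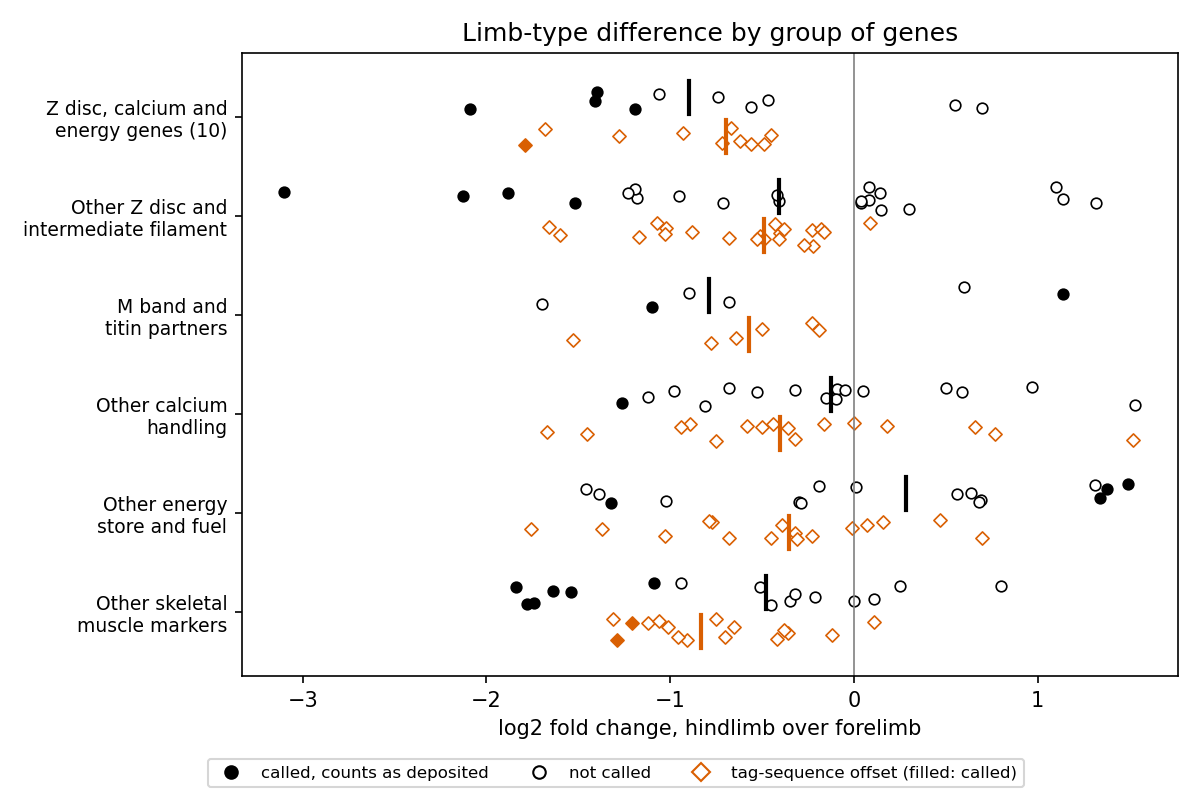
Log2 fold change of each tested gene, hindlimb over forelimb, for the 10 genes, the 4 lists of other genes of the same machinery and other skeletal muscle markers. Black circles are from the counts as deposited (filled where the edgeR adjusted p was under 0.05) and orange diamonds are with the tag-sequence offset, with medians as vertical bars. The offset medians of the 6 groups lie between −0.83 and −0.35.

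Of 16 tested contractile, troponin and myogenic genes other than the 10, 6 were called lower in hindlimb and 0 higher (7 and 0 at an unadjusted p under 0.05, 6 and 0 by DESeq2). Over all features 7.08% were called lower, 15.6% at an unadjusted p under 0.05 and 7.49% by DESeq2. The median log2 fold change of the 16 was −0.48, and −0.83 with the offset. With the offset none of the 6 passed. The 2 genes then called, Mylpf (edgeR adjusted p = 0.0449) and Myl1 (0.0202), had not passed without it (0.288 and 0.329). Over all features 0.153% were called with the offset. The summed level of the 16 was 3575 and 3650 CPM in hindlimb, against 8403 and 7307 CPM in forelimb. Without the actins Acta1 and Actc1, the other 14 summed to 1698 and 1998 CPM in hindlimb, against 2433 and 2807 CPM in forelimb. Values at or above 0 were those of Myod1 (0.80), Tnni1 (0.25), Tpm2 (0.11) and Tnni2 (0.00), none called. The part of muscle content in the differences of the 10 genes was not tested, and it cannot be told apart from a difference in the genes' levels per fibre.

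The 9 heart muscle markers had a summed level of 110 and 129 CPM in hindlimb, against 98.8 and 117 CPM in forelimb, most of it from Myl4, which embryonic skeletal muscle also makes. Of 3 tested, Myh6, Myl4 and Ankrd1, 0 were called (1, Myh6, at an unadjusted p under 0.05, 0 by DESeq2). Myh6 stood at −1.14 ± 0.45 (edgeR adjusted p = 0.0904), with 26.5% of its counts in tags that matched several genes. Of 5 tested smooth muscle markers 1, Acta2, was called lower, and their list summed to 107 and 102 CPM in hindlimb, against 144 and 146 CPM in forelimb. Acta2 carried the lower hindlimb sum, with 36.5 and 29.5 CPM in hindlimb, against 75.4 and 101 CPM in forelimb. Of 3 tested muscle progenitor markers 1, Myf5, was called lower, and their list summed to 22.5 and 21.2 CPM in hindlimb, against 59.1 and 72.9 CPM in forelimb. Cartilage markers summed to 2841 and 3948 CPM in hindlimb, against 2172 and 1890 CPM in forelimb. Col2a1 carried the higher hindlimb sum, with 1853 and 3274 CPM against 1092 and 772 CPM, and stood at 0.22 with the offset. Of 5 tested 1 was called in each direction, Col2a1 higher and Matn1 lower (136 and 119 CPM in hindlimb, 250 and 363 CPM in forelimb). Over all features 7.08% were called lower and 16.7% in either direction. With the offset none of the smooth muscle, progenitor or cartilage markers was called, and Myf5 was at −0.46 (edgeR adjusted p = 0.733), against −1.94 without it. The part of these cell types in the differences of the 10 genes was not tested.

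The mean profile of the 10 genes, on a log2 scale centred on each gene's mean, was −0.34 and −0.43 in hindlimb and 0.45 and 0.33 in forelimb. Among 9656 features with a mean of at least 10 CPM, those most like it included Cpsf2, Dtx4, Hmgxb4 and Bnip2, with a root mean square difference over the 4 libraries of 0.033 to 0.041, beside a median of 0.514 over all candidates. Cpsf2 had 16.0 and 15.6 CPM in hindlimb, against 27.5 and 26.6 CPM in forelimb. With 4 libraries such likeness is a description of these samples only.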

How the data were processed

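The authors deposited whole-number tag counts, 1 column per library, and gave many tags an Ensembl gene, a UniGene cluster or both. Bowtie and the build mm9 were used, per the submitters' processing notes; their version is not given in the sources used here. Of 733961 tags, 134117 had a gene or cluster and a count. Their counts were summed per Ensembl gene, or per cluster where no gene was given. The rest of the tags held 14.81% to 18.69% of each library's counts and entered neither the library sizes nor the tests. Tags were matched to GENCODE M21 transcripts beside each CATG, and 98.03% of the counts in tags of a single M21 gene lay in tags given that gene in the deposited table.

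Limb types were compared with edgeR 4.0.16 in R 4.3.3 (quasi-likelihood test, TMM, filterByExpr, Benjamini-Hochberg at 0.05, no block), with log2 fold changes hindlimb over forelimb and 2 residual degrees of freedom. A prior count of 2 entered log2 CPM values only, not the fold changes. Single tags were tested likewise, and tag ratios within a gene with diffSpliceDGE (Simes). No pair of replicates was 1 library deposited again (chi-square per degree of freedom 20 for the hindlimb pair and 8.73 for the forelimb pair). The tag-sequence offset models base and position, the first dinucleotide and quadratic terms of G and C and of purine number. It was fitted per library on within-gene differences of 42831 tags with at least 20 counts, and explained 0.3803 to 0.4284 of their variance as a fraction. Alternatives included DESeq2 1.42.0, other scalings and filters, other choices of tags, thinning, and leaving out each library.

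The 10 genes, the lists and the rules were chosen with earlier results of these data known. Named were the 10 genes, up to 4 called genes of each list by smallest p, the 5 genes of the most similar profile (1 is not reported here), and tags with at least 10% of a gene's counts or the opposite sign. Tags are PCR products without molecular identifiers. Forelimb replicate 2 had the fewest counts, 1829647.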

Additional observations from a re-analysis of the deposited data

Results flagged for a closer look

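Some tags with no gene in the deposited table matched a single M21 gene among the 10, and their counts stand outside the comparisons above. Over the 4 libraries these tags held 468 counts for Ttn, 123 for Actn2, 91 for Ryr1, 31 for Myoz2, 23 for Casq2, 7 for Ldb3 and 5 for Des. They were 20.2% of all counts of Ttn and 18.5% of all counts of Ryr1. The Ttn tags had 102 and 89 counts in the hindlimb libraries, against 198 and 79 in the forelimb libraries. The Ryr1 tags had 25 and 33 counts in hindlimb, against 29 and 4 in forelimb. With these tags added, an alternative chosen after seeing the data, 4 of the 10 genes were again called lower.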

How the results depend on the processing

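The count of 4 called genes of the 10 was also 4 with DESeq2, DESeq2 size factors, library totals alone, no low-count filter, the GC offset, tags of 1 gene, the most abundant tag (Des then higher), thinning and the replicate block. It was 1 with the tag-sequence offset, 2 of the 8 tested from the last NlaIII site, and 1 to 5 when single libraries were left out. Over all features 2285 were called, 21 with the tag-sequence offset, 829 with the GC offset and 950 to 3900 without single libraries. Of single tags 2358 were called, 3707 without the low-count filter, 10 with the offset and 2119 to 10285 without single libraries. Tag usage differed in 905 genes, and in 12 to 2139 without single libraries.

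The replicate numbers do not pair the samples by the labels, and replicate differences of the limb types correlated at −0.105 over 13718 features. The replicate block gave 2148 features, 480 tags and 131 genes of differing tag usage. With numbers crossed, an alternative added after seeing the data, 3170 features and 4 of the 10 genes were called.

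Signs turned for Des (−0.62 with the tag-sequence offset, −0.37 with the GC offset), Mb (−0.49 and −0.32), Ttn (0.39 from the last site), Obsl1 (−0.19) and Pfkm (−0.32, both with the tag-sequence offset). With the GC offset, a correction on the G and C share of a gene's tags alone, 1 group of calls was lost. These were the calls of Myot, Obsl1, Atp2a2, Pfkm, Slc6a8, Gatm and Phkg1, while those of Smpx, Flnc, Fhl1 and Myom1 held. Causes were not tested. Fewer samples enter where a library is left out, and a lone library is then assumed to vary like the others. With 2 libraries a limb type, and 9 to 76 counts of Des, Mb, Ckm, Myoz2 and Ryr1 in forelimb replicate 2, a p above the threshold does not show equal levels.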
